A study of Mus musculus with 12 samples.

Results

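Pyruvate kinase makes pyruvate and ATP from phosphoenolpyruvate in the last step of glycolysis, and mice encode it in 2 genes, Pkm and Pklr. Every probe set annotated to either gene was taken, which gave 2 of 18194 genes on the array, with 1 probe set for Pkm (1417308_at) and 3 for Pklr (1421258_a_at, 1421259_at and 1438711_at). Pkm was chosen with earlier results of these arrays known, for its level over the TTP labels, so its levels and TTP differences are given as a description with no test. Pklr was added by name for contrast.

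The arrays measured total RNA of bone marrow cells taken up with MACS beads that bind B220, the CD45 isoform carried by B-lineage cells, from littermates aged 4 to 6 weeks on a background that was 94% C57BL/6. There were 4 groups of 3 arrays: precancerous mice with both the Eμ-Myc and the Eµ-TTP-1 transgene (Myc TTP), mice with Eµ-TTP-1 alone (TTP), precancerous mice with Eμ-Myc alone (Myc) and wild type. The Eµ enhancer of the immunoglobulin heavy chain gene drives both transgenes, so expression is directed to B cells. TTP, tristetraprolin, is encoded by Zfp36, binds AU-rich elements of mRNAs and promotes their decay. The labels call the arrays of a group biological replicates and do not say whether animals were pooled. The design asks how a TTP transgene alters B cells with and without the Myc transgene.

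Pkm gives rise to the M1 and M2 isoforms by the choice between a pair of mutually exclusive exons, and PTBP1 and hnRNP proteins favour the exon of M2, the isoform of proliferating cells. Pklr has a promoter used in liver and another used in red cell precursors. MYC is known to raise transcription of many glycolytic genes and of the splicing factors that favour M2. A probe set summarises one stretch of the gene, and which isoforms the Pkm probe set detects was not known here.

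Promoter windows of both genes are shown because the groups differ in a transcription factor, MYC, and because the genes differ in the tissues that use them. They end at the annotated gene start in RefSeq, build GRCm38.p6, both on the plus strand. The Pkm window is chr9:59656326-59656575, and the Pklr window, before the upstream start, is chr3:89135892-89136121. Capitals mark GGGCGG, the core of the GC box bound by SP1, and AGATAA, a form of the site bound by GATA factors, each searched on both strands.
Pkm: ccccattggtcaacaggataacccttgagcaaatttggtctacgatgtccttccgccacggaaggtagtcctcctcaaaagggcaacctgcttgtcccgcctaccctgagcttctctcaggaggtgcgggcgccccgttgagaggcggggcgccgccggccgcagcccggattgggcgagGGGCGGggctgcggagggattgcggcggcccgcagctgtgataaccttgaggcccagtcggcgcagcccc
Pklr: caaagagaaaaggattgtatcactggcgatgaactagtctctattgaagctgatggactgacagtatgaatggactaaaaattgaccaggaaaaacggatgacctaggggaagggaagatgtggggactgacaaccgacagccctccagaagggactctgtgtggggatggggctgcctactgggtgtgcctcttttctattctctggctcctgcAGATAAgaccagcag
The GC box letters stood at position -70 from the gene start in the Pkm window and in 32.7% of 32851 promoter windows of 250 bases. AGATAA stood once in the Pklr window and in 9.99% of all windows. Other forms of the GATA site were not searched, and the letters tgataa stand in the Pkm window. The capitals thus do not compare GATA sites between the Pkm and Pklr windows. The E-box CACGTG, which MYC and MAX bind, occurred in 6.02% of all windows and in neither of these.

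Some arrays went against their labels or stood apart. The Myc probe set had log2 intensities of 11.82, 12.73 and 13.37 on Myc TTP arrays, 10.05, 10.39 and 13.47 on TTP arrays, 13.71, 13.92 and 12.99 on Myc arrays, and 9.65, 9.68 and 12.65 on wild-type arrays, so that the arrays labelled TTP 3 and wild type 3 lay with the Myc-labelled ones. On 4 arrays, all of them numbered 3, Xist and at least 1 of 3 Y-linked probe sets were above log2 4. On Myc 3 that was Eif2s3y alone. The Zfp36 intensity was 177, 393 and 579 on Myc TTP arrays, 939, 952 and 878 on TTP arrays, 623, 647 and 1022 on Myc arrays and 1663, 892 and 918 on wild-type arrays, so the TTP label came with no higher Zfp36 signal. Whether its probe set detects the transgene was not known here. Of 14 B-lineage marker genes, 13 had a probe set and all 13 were above log2 4 on every array. With Myc 12 of these 13 fell (median -0.81), where 24.6% of all genes fell, so B-lineage markers moved with the Myc differences given below. For several results on Pkm, Pklr and counts, the value without wild type 3 and TTP 3 is given too. Differences of single list genes are from all 12 arrays and can move when arrays are dropped. Over the alternatives described at the end, Ldha rose with Myc by 0.70 to 1.11 and Myc itself by 1.79 to 3.15. A gene said not to pass did not pass in the fit of all arrays.

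Pkm was high on every array with a TTP label. Its intensity, on the linear scale of the deposited GCRMA values, was 8750, 9186 and 9260 on Myc TTP arrays and 8166, 8217 and 7274 on TTP arrays. It was 4831, 3722 and 5047 on Myc arrays and 1615, 2194 and 6887 on wild-type arrays. The 6 TTP-labelled arrays all lay above the 6 others, and the array labelled wild type 3 was the only one of the others that came close.

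**Figure D1:**
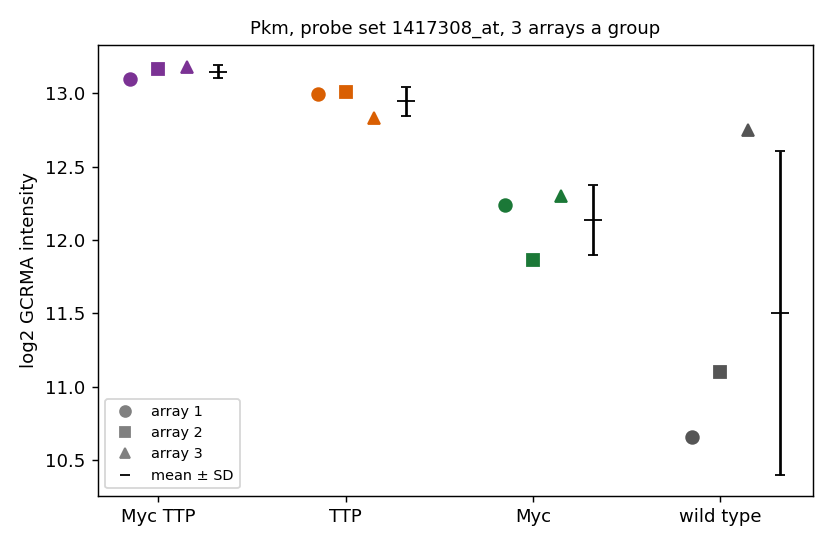
Log2 GCRMA intensity of the Pkm probe set on each array, with 4 groups of 3 arrays on the x axis, a marker shape for each array number, and the mean ± SD beside each group. The Myc TTP and TTP arrays sit between 12.83 and 13.18, Myc arrays between 11.86 and 12.30, and wild-type arrays spread from 10.66 to 12.75.

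On the log2 scale Pkm averaged 13.15 ± 0.04 on Myc TTP arrays, 12.94 ± 0.10 on TTP arrays, 12.13 ± 0.24 on Myc arrays and 11.50 ± 1.10 on wild-type arrays (SD, n = 3 each). The spread within groups was thus unequal, narrow with the TTP label and widest in wild type. TTP arrays were 1.44 ± 0.40 above wild type (SE of the limma fit), a fold of 2.71, and Myc TTP arrays were 1.01 ± 0.40 above Myc, a fold of 2.02. Of all tested genes, 36.4% were higher in TTP over wild type (median -0.06) and 85.0% in Myc TTP over Myc (median 0.27). Averaged over both backgrounds the TTP-labelled arrays were 1.23 ± 0.29 higher, a fold of 2.34. This direction was the ground on which the gene was chosen.

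The gap between the sides was bounded by TTP 3 and wild type 3. The lowest TTP-labelled array, TTP 3, was at 12.83, and the highest array without the label, wild type 3, was at 12.75, a gap of 0.08. Without wild type 3 the highest was Myc 3 at 12.30, and the gap was 0.53. Without wild type 3, TTP over wild type was 2.06, and without both wild type 3 and TTP 3 it was 2.12. Over all tested genes, 0.0972% had the 6 TTP-labelled arrays apart from the 6 others in either direction. In single contrasts the groups did not overlap for 4.25% of genes in TTP over wild type and for 33.7% in Myc TTP over Myc, and nothing is read from these shares since Pkm was chosen on the same contrasts.

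The levels of Pkm were ordered Myc TTP, TTP, Myc and wild type from high to low. Neighbours in this order were not all separate beyond their spread. Myc TTP arrays were 0.20 ± 0.40 above TTP arrays, with no overlap of values, where 35.9% of all genes did not overlap either. Myc arrays were 0.63 ± 0.40 above wild type, and wild type 3 lay above all 3 Myc arrays. The TTP difference was 0.43 smaller with Myc than without it (interaction -0.43 ± 0.57), and without wild type 3 and TTP 3 the interaction was -1.11.

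The difference of Myc labels, averaged over both TTP labels, was tested. It is separate from the TTP differences that chose Pkm only where groups are equal in size and in spread. The spread was unequal (SD 1.10 in wild type and 0.10 in TTP), so the test is not free of that choice. Pkm averaged 12.64 over Myc and Myc TTP arrays and 12.22 over TTP and wild-type arrays, a difference of 0.42 ± 0.29 with a 95% interval from -0.21 to 1.05. It did not pass over the 10287 genes tested (limma, adjusted p = 0.246), nor in an exact permutation of the Myc labels within each TTP label (two-sided p = 0.28 over 400 regroupings, the smallest possible being 0.005). The interval leaves room for a rise of up to 1.05 and for a small fall. Of all genes 43.2% were called in this contrast.

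The result for Myc rested on the array labelled wild type 3. Without it Pkm was 0.73 higher with Myc, and without any 1 of the other 11 arrays 0.21 to 0.49 higher. With 1 array left out the groups are unequal, the Myc and TTP differences share part of their error, and no test is given. Without both wild type 3 and TTP 3, whose Myc signal went against their labels, Pkm was 0.70 higher. These arrays were picked after their values were seen, and wild type 3 had the highest Pkm without a TTP label. No test is given for that subset either.

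Pklr, by contrast, was near or below the floor on most arrays. Probe set 1421259_at lay between 2.21 and 2.42 on all 12 arrays, well under the floor of log2 4. Probe set 1421258_a_at passed the floor on 2 arrays, TTP 2 at 4.32 and wild type 2 at 4.07. Probe set 1438711_at was 3.53, 3.55 and 3.51 on Myc TTP arrays, 4.12, 6.21 and 3.48 on TTP arrays, 2.90, 2.39 and 3.23 on Myc arrays, and 3.82, 5.03 and 3.42 on wild-type arrays. In both of these probe sets TTP 2 was the highest array and wild type 2 the next.

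**Figure D2:**
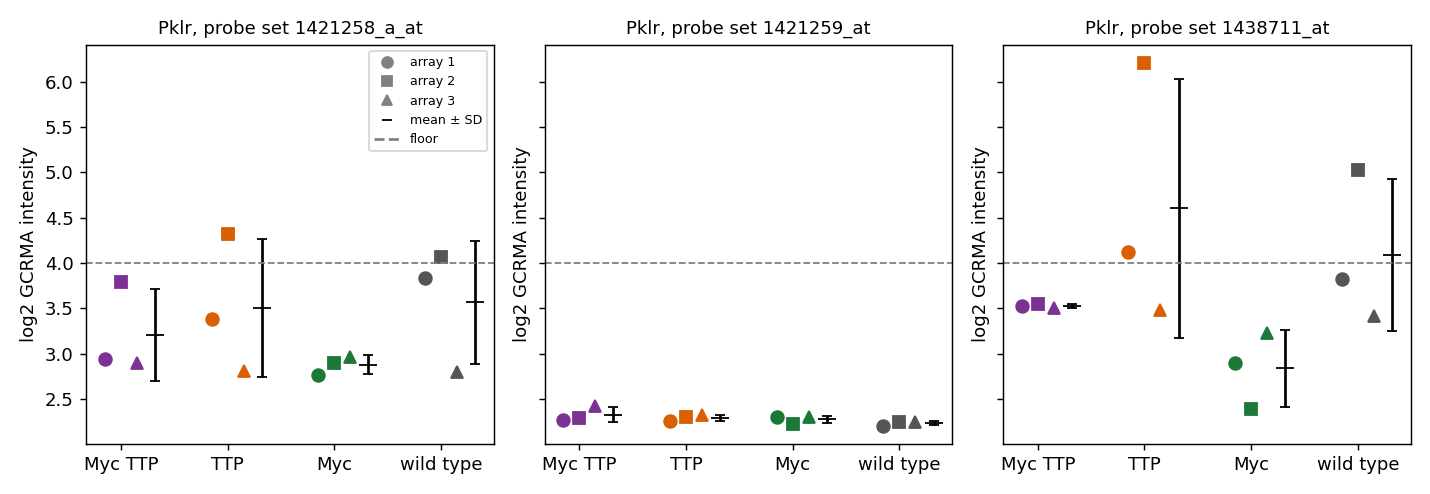
Log2 GCRMA intensity of the 3 Pklr probe sets on each array, with the groups on the x axis, a marker shape for each array number, the mean ± SD beside each group, and a dashed line at the floor of log2 4. Only TTP 1, TTP 2 and wild type 2 exceed the floor in any probe set.

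Probe set 1438711_at entered the test by passing the floor on exactly 3 arrays. With it Pklr averaged 3.18 over Myc and Myc TTP arrays and 4.35 over TTP and wild-type arrays. All 3 arrays above the floor, TTP 1, TTP 2 and wild type 2, lie on the side without Myc, and all 6 Myc-labelled arrays were below the floor. TTP 3, wild type 1 and wild type 3 were below it too, so no fold is given. The probe set thus entered through the side where it was high, so the difference with Myc is a description and no test of it is given. Without TTP 1, TTP 2 or wild type 2 the probe set no longer entered. The TTP labels gave 0.60 ± 0.44. This too is a description with no test, since TTP 1 and TTP 2 were among the arrays through which the probe set entered.

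Red cell precursors use Pklr, so erythroid markers are given beside it. Of 12 erythroid genes 9 were tested, and 7 fell with Myc, where 24.6% of all genes fell. The fall was not particular to them, since markers of the other marrow cells fell too. The summed intensity of the erythroid markers ranged from 14472 to 19236 on Myc TTP, 15186 to 35114 on TTP, 12857 to 18406 on Myc arrays, and 18691 to 25347 in wild type. Tfrc, at a mean log2 of 13.72 on Myc arrays, made up most of the sum there and masks the others. The mean log2 of the markers was 5.96 to 8.17 on Myc TTP, 7.83 to 10.40 on TTP, 5.08 to 8.19 on Myc arrays, and 8.18 to 9.36 in wild type. Their median difference in Myc over wild type was -3.33. The summed intensity was highest on TTP 2, the array with the highest Pklr. Wild type 2, the next for Pklr, was at 23503, below TTP 1 and wild type 1 at 28724 and 25347. No erythroid marker with a probe set was below the floor on all 3 arrays of any group. Their part in the Pklr values was not tested, and in bulk RNA fewer cells of a type and less RNA per cell cannot be told apart.

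Markers of other marrow cells are given beside Pkm. The summed intensity of 15 granulocyte markers was 106911 to 161737 on Myc TTP arrays, 181346 to 368396 on TTP arrays, 9378 to 215796 on Myc arrays, and 230375 to 323171 in wild type. The TTP and wild-type ranges overlapped, and the median difference of these markers was 0.01 in TTP over wild type, with 0 of 15 called. In Myc TTP over Myc, where Pkm was also higher, their median was 2.15, with 0 of 15 called. Their summed intensity on Myc 1 and Myc 2 was 9378 and 24027, far below every Myc TTP array, and Myc 3 alone, at 215796, made the ranges overlap. Cxcr2 was below the floor on every array of both groups. With Myc 14 of the 15 granulocyte markers fell, as did 9 of 9 monocyte and macrophage, 6 of 6 plasmacytoid dendritic cell and 5 of 6 NK and T cell markers (the other 2 tested entered through the side without Myc), where 24.6% of all genes fell. The summed intensity of 10 monocyte and macrophage markers was 10643 to 20016 on Myc TTP, 19962 to 56342 on TTP, 3288 to 22505 on Myc arrays, and 29492 to 52910 in wild type. Cd14 was below the floor on every Myc TTP, TTP and Myc array. The part of these cells in the Pkm differences was not tested.

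No tested gene passed the threshold in either TTP contrast, those of the glycolytic pathway included. The list held 36 other genes of glucose uptake, glycolysis and lactate, of which 24 were tested. In TTP over wild type 0 of the 24 passed with limma, with differences from -0.47 to 0.34 and a median of 0.03, against -0.06 for all genes. None of them had an unadjusted p under 0.05, and over all 10287 genes 0% were called and 1.45% had such a p. In Myc TTP over Myc 0 passed, with differences from -0.57 to 1.5 and a median of 0.23, against 0.27 for all genes. There 2 of the 24 had an unadjusted p under 0.05, where 19.1% of all genes did and 0% were called. The 1.44 of Pkm lay outside the range of the list in TTP over wild type. The 1.01 of Pkm lay inside it in Myc TTP over Myc, where Hk3 was at 1.5. Pkm was chosen for its TTP differences and the list was not, so nothing is read from its place.

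**Figure D3:**
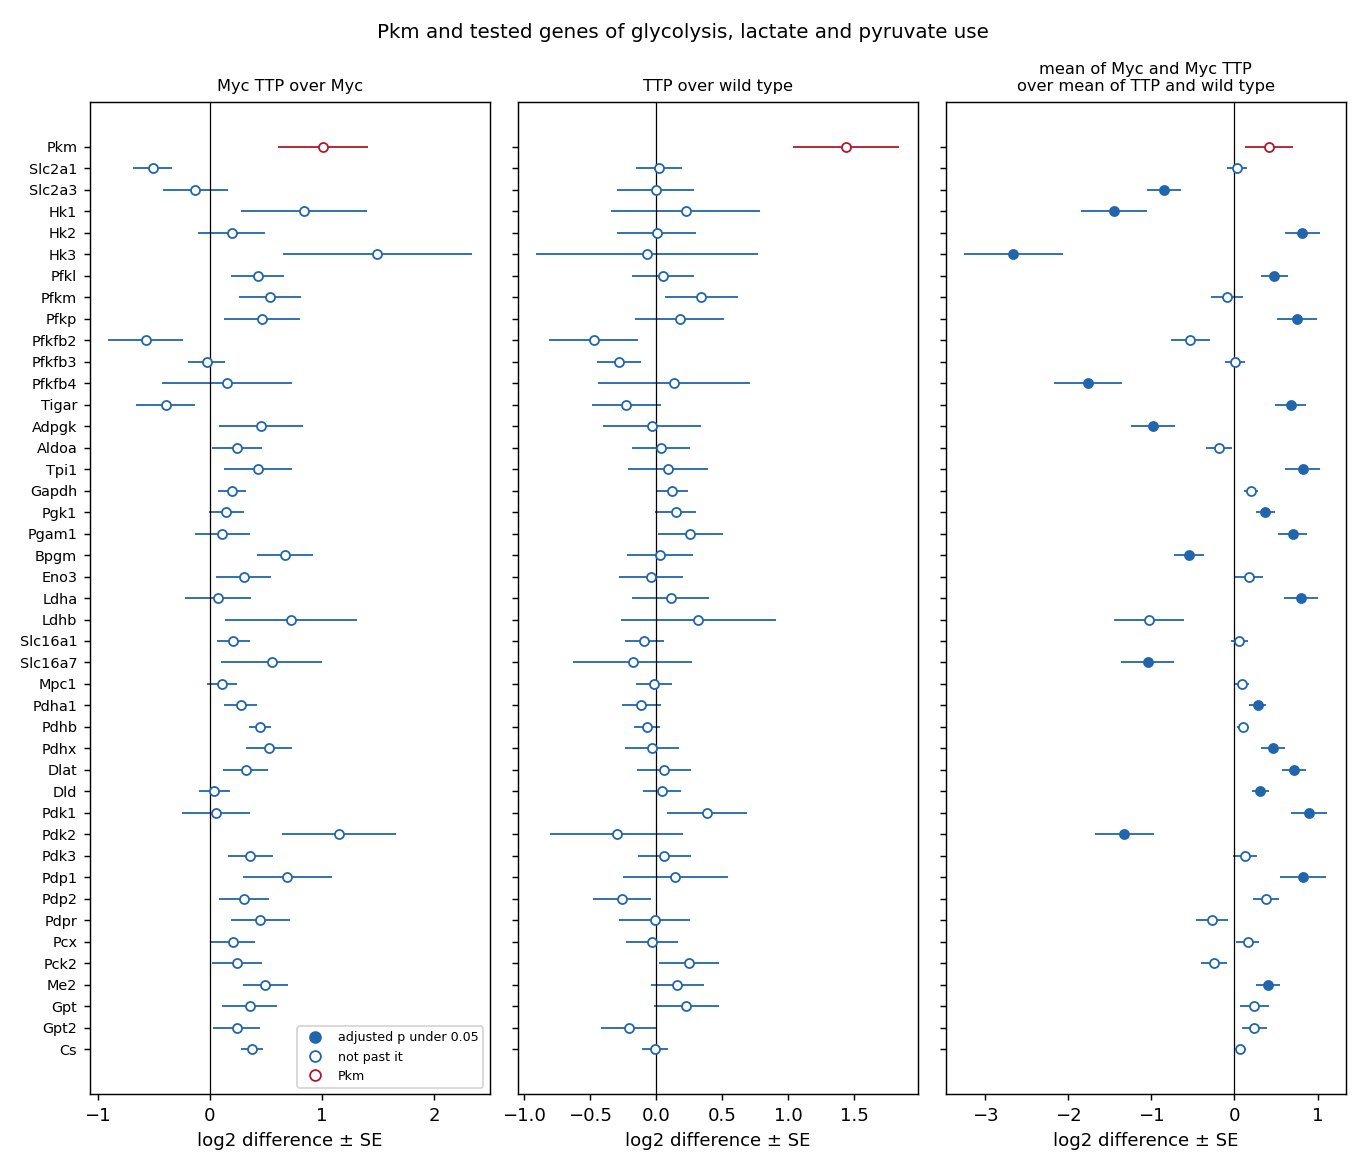
Log2 difference ± SE of Pkm (red) and of the tested genes of glycolysis, lactate and mitochondrial pyruvate use (blue) in Myc TTP over Myc, TTP over wild type, and Myc labels averaged over TTP labels. Filled points passed an adjusted p of 0.05, which occurs only in the Myc panel. Pkm, chosen for its TTP differences, lies furthest right in TTP over wild type.

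With Myc, the enzymes on both sides of the Pkm step moved. Of the 24 genes 8 were called higher and 7 lower, where 18.7% of all genes rose and 24.6% fell. Ldha, which turns pyruvate into lactate, had log2 values of 14.27, 14.35 and 14.63 on Myc TTP arrays, 14.40, 14.50 and 14.13 on Myc arrays, 13.33, 13.40 and 14.17 on TTP arrays and 13.12, 13.22 and 14.23 on wild-type arrays. Only the arrays labelled TTP 3 and wild type 3 reached the level of the Myc-labelled arrays. Ldha rose by 0.80 ± 0.21 (adjusted p = 0.0171).

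Among the enzymes before pyruvate kinase, Tpi1, the triose phosphate isomerase, rose by 0.82 ± 0.21, Pgk1, the phosphoglycerate kinase, by 0.37 ± 0.11 and Pgam1, the phosphoglycerate mutase, by 0.70 ± 0.18. Hk2, the hexokinase induced in many tumours, rose by 0.82 ± 0.21, and the phosphofructokinases Pfkl and Pfkp by 0.48 ± 0.17 and 0.75 ± 0.24. Tigar, a phosphatase that lowers fructose 2,6-bisphosphate, rose by 0.68 ± 0.19. The adjusted p of these genes was at most 0.0388. Aldolase A, Aldoa, was at -0.19 ± 0.16 and Gapdh at 0.20 ± 0.09, and neither passed (adjusted p = 0.347 and 0.0865). Eno1 and Gpi1 had no probe set assigned to them alone and were not analysed here.

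The genes that fell included other hexokinases and genes of other steps. Hk3, the hexokinase of myeloid cells, fell by 2.66 ± 0.59, and Hk1, a widely expressed hexokinase, fell by 1.45 ± 0.40. The glucose transporter Slc2a3 fell by 0.85 ± 0.21, and Pfkfb4, which makes fructose 2,6-bisphosphate, fell by 1.76 ± 0.41. The ADP-dependent glucokinase Adpgk fell by 0.98 ± 0.26, and Bpgm, which makes 2,3-bisphosphoglycerate in red cells, fell by 0.55 ± 0.18. The call of Slc16a7, a monocarboxylate transporter, is not read as a fall, since it was above the floor only on TTP 1, TTP 2, wild type 1 and wild type 2 and entered through that side. Without it 8 rose and 6 fell of 23. Ldhb, the lactate dehydrogenase subunit of oxidative tissues, was at -1.03 ± 0.42 and did not pass (adjusted p = 0.0654). All 6 marker lists, B lineage included, fell with Myc in most of their tested members, and their part in these falls was not tested.

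Of the 15 calls in this list, 8 held without any 1 of the 12 arrays. Pfkl, Pfkp, Bpgm and Slc16a7 lost theirs most often, holding in 3, 4, 4 and 5 of the 12. The Pfkl call was also lost with the replicate number as a block and with no filter. Without wild type 3 and TTP 3, 9 rose and 10 fell.

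Genes that use pyruvate in mitochondria were not called over the TTP labels either. Of 22 genes 18 were tested, and 0 passed in TTP over wild type (median -0.01, 0 with an unadjusted p under 0.05) or in Myc TTP over Myc (median 0.34, 5 with such a p). Over all genes 1.45% and 19.1% had such a p, and the median in Myc TTP over Myc was 0.27. With Myc 7 rose and 1 fell, a share of 44.4% called, near the 43.2% of all genes. The E2 subunit of pyruvate dehydrogenase, Dlat, rose by 0.72 ± 0.14, and Pdk1, a kinase that switches the complex off, by 0.90 ± 0.22. Another such kinase, Pdk2, fell by 1.33 ± 0.36. The subunits Pdha1, Pdhx and Dld rose by 0.28 ± 0.10, 0.46 ± 0.14 and 0.31 ± 0.10, the phosphatase Pdp1 by 0.83 ± 0.28, and the malic enzyme Me2 by 0.41 ± 0.14. Without any 1 of the 12 arrays in turn, Dlat, Pdk1 and Pdk2 kept their calls. The list had only 3 calls without any 1 of the 8 arrays numbered 1 or 2, and 4 with the replicate number as a block.

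The factors that choose between the exons of Pkm were called with Myc about as often as all genes. Of 8 genes 7 were tested, and in both TTP contrasts 0 passed and 0 had an unadjusted p under 0.05. With Myc 2 rose and 1 fell, a share of 42.9% called against 43.2% of all genes. Ptbp1, which represses the M1 exon, was 13.82, 13.80 and 13.94 on Myc TTP arrays, 13.65, 13.75 and 13.52 on Myc arrays, 13.10, 13.29 and 13.66 on TTP arrays and 13.23, 13.31 and 13.64 on wild-type arrays. It rose by 0.37 ± 0.11 (adjusted p = 0.0205), with TTP 3 and wild type 3 at the level of the Myc arrays. Nek2, a mitotic kinase that interacts with hnRNPA1 in this choice in human cells, rose by 0.57 ± 0.17, and Ptbp3, a relative of Ptbp1, fell by 0.30 ± 0.11. Hnrnpa1 was at 0.16 ± 0.07 and did not pass (adjusted p = 0.0861). The Ptbp3 call was also lost with the replicate number as a block, with no filter, with another probe set, with a common array median and with no intensity trend. Each of the 3 calls was lost without some array, and without Myc 2, wild type 1 or wild type 2 the list had 0 calls.

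Transcription factors linked to glycolytic genes were tested in 9 of 10 cases. Over the TTP labels 0 of the 9 passed in either contrast, with 0 and 2 at an unadjusted p under 0.05 in TTP over wild type and in Myc TTP over Myc, where 1.45% and 19.1% of all genes had one. With Myc 22.2% of the list was called, below the 43.2% of all genes. With Myc, Myc itself rose by 2.11 ± 0.67 (adjusted p = 0.0296), and Mlxip, a glucose-sensing partner of MLX, fell by 0.48 ± 0.13 (adjusted p = 0.0195). Myc kept its call in only 4 of the 12 fits that left out an array. Hif1a, the hypoxia factor known to raise Pkm in other cells, was 0.41 higher in TTP than in wild type and 0.15 lower in Myc TTP than in Myc, and neither passed (adjusted p = 1.00 and 0.801). Its lowest array was wild type 3.

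The genes next to Pkm on its chromosome were read as a local comparison. The 3 nearest protein-coding genes with a probe set on each side were Hexa, Celf6 and Parp6 on one and Senp8, Myo9a and Thsd4 on the other. Celf6 and Thsd4 were below the floor on all 12 arrays. In TTP over wild type, where Pkm was 1.44 higher, Hexa, which encodes a lysosomal hexosaminidase subunit, was at 0.00, Parp6, a mono-ADP-ribosyltransferase, at 0.24, Senp8, a NEDD8 protease, at -0.08 and Myo9a, an unconventional myosin, at -0.40. In Myc TTP over Myc they were at 0.08, 0.13, 0.40 and 0.39. None passed in either contrast or with Myc.

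**Figure D4:**
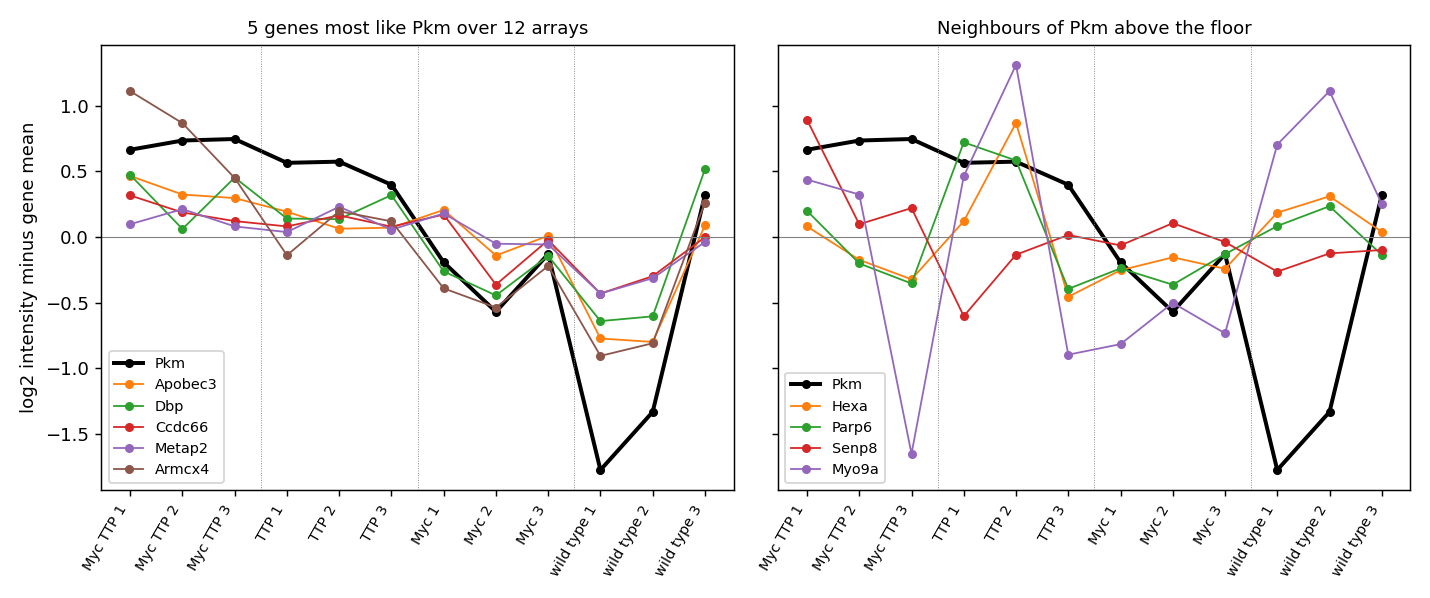
Log2 intensity minus the gene's mean over 12 arrays, by array, for Pkm (black) with the 5 genes most like it (left) and with its chromosomal neighbours above the floor (right). Apobec3, Dbp and Armcx4 share the low values of wild type 1 and 2 and the higher value of wild type 3, and the neighbours have no such step. The genes on the left were picked for their correlation with Pkm and the neighbours were not, so nothing is read from this contrast.

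The genes most like Pkm were found by Pearson correlation of log2 values over the 12 arrays, as a description in which arrays share their groups. Apobec3, a cytidine deaminase that restricts retroviruses, came first (r = 0.93). It was 11.87, 11.73 and 11.70 on Myc TTP arrays, 11.59, 11.47 and 11.47 on TTP arrays, 11.61, 11.26 and 11.41 on Myc arrays and 10.63, 10.60 and 11.49 on wild-type arrays. As with Pkm, wild type 1 and 2 were the lowest arrays and wild type 3 lay with the other groups. After group means were subtracted its correlation with Pkm was 0.92, and without wild type 3 and TTP 3 it was 0.94 over 10 arrays. Both values come from arrays on which Apobec3 was picked. Within groups Pkm varied most in wild type (SD 1.10), where wild type 3 stood apart.

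Dbp, a transcription factor of the circadian output, followed at 0.89, then Ccdc66, a centrosomal and ciliary protein, at 0.88, Metap2, a methionine aminopeptidase, at 0.88 and Armcx4 at 0.86. Dbp was 8.24 to 8.65 on Myc TTP arrays, 8.31 to 8.5 on TTP arrays, 7.73 to 8.03 on Myc arrays, and 7.54 to 8.69 in wild type, so that its highest and its lowest value were both wild type. The lowest correlations were those of Rab5a, a GTPase of early endosomes, at -0.85, Pfkfb2, another kinase of fructose 2,6-bisphosphate, at -0.81, Gm31679 at -0.80, Manea at -0.79 and Dock2, a Rac activator of lymphocytes, at -0.78. Without wild type 3 and TTP 3 the correlations of the first 5 were 0.86 to 0.94 over 10 arrays. Rab5a was 10.87 to 11.05 on Myc TTP, 10.98 to 11.05 on TTP, 11.03 to 11.32 on Myc arrays, and 11.19 to 11.40 in wild type. In TTP over wild type Apobec3 was 0.60 ± 0.21 higher and Rab5a 0.29 ± 0.11 lower. Both were picked for their correlation with Pkm, itself chosen for its TTP differences, so this is a description with no test.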

How the data were processed

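Total RNA of 12 samples was hybridised to Affymetrix MOE430 2.0 arrays, 1 array a sample. The authors deposited GCRMA values per probe set, per the submitters' processing notes, with no version. The values show that the deposited unit is intensity on a linear scale, from 1.73 to 120125, with array medians of 10.9 to 13.9. GCRMA normalizes between arrays, which hides any change in total RNA per cell and leaves undetected probe sets at low values. Log2 was taken of the deposited intensity, and nothing was added first.

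Of 45101 probe sets, 34958 had a single gene symbol, 932 several and 9211 none. Symbols were updated through Entrez identifiers in RefSeq (GRCm38.p6), which held 34754 of them. For each of 18194 genes the probe set of highest mean was used, and 10287 were tested, those above log2 4 on at least 3 arrays. The test was limma 3.58.1 (R 4.3.3; lmFit, eBayes with trend) fitted to 4 group means with 8 residual degrees of freedom, with Benjamini-Hochberg adjustment over all genes tested and a threshold of 0.05. Errors beside differences are SE of that fit and errors beside means are SD. Precision is limited by the number of arrays. The fit was checked on simulated data.

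The members and lists were chosen with earlier results of these data known. Genes are named by a rule: the pyruvate kinases, Myc and Zfp36, 3 neighbours on each side, the 5 highest and 5 lowest correlations, and list members called or of smallest p. Same-numbered TTP and wild-type arrays had correlated residuals (0.498, 0.664 and 0.821), though the labels give no reason and wild type 3 and TTP 3 both stood apart. With the number as a block 0 genes were still called in TTP over wild type. In the other pairs of groups compared the lowest such correlation was -0.0582 or less. No batch is given in the labels. No 2 arrays held identical values. Alternatives were the filter, the probe set, scaling, trend, pseudocount, the replicate block and left-out arrays.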

Additional observations from a re-analysis of the deposited data

How the results depend on the processing

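The TTP differences of Pkm stayed above 0 under all 23 alternatives run. All 6 TTP-labelled arrays lay above the 6 others, so leaving out arrays could not change this sign. Nothing is read from it, since Pkm was chosen for this direction. TTP over wild type was 1.02 to 2.06 when 1 array was left out, Myc TTP over Myc 0.88 to 1.10, the TTP labels averaged 1.02 to 1.54 and the interaction -1.05 to -0.0064. Apart from Myc TTP over Myc, these extremes came without wild type 1 and without wild type 3. With wild type 3 and TTP 3 left out, or all 4 arrays numbered 3, TTP over wild type was 2.12 in both, and the interaction -1.11 and -1.04. The Pkm difference with Myc was 0.21 to 0.73 with 1 array left out, 0.70 without wild type 3 and TTP 3, and 0.65 with all 4 arrays numbered 3 left out. For Pklr with Myc, a description since its probe set entered through the side without Myc, the value was -1.44 to -1.05 in the 9 such fits that kept it, -1.08 after quantile normalization, -1.06 with a common array median, -1.61 without wild type 3 and TTP 3 and -1.70 with all 4 arrays numbered 3 left out. A filter of log2 6 left Pklr out. With the replicate block Pkm still did not pass with Myc (0.42, limma, adjusted p = 0.236), in a test not free of the choice of the gene.

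Counts moved more. With Myc, 4449 genes were called, 2148 to 5808 with 1 array left out and 7149 probe sets when each was fitted. The glycolysis count of 15 was 9 to 18, and 26 by probe set. The pyruvate count of 8 was 3 to 10, 5 with no filter, 14 by probe set and 4 with the replicate block. The exon choice count of 3 was 0 to 4, and 5 without wild type 3 and TTP 3. In TTP over wild type the count of genes was 0 to 1 with 1 array left out, and 1 by probe set. It was also 1 when wild type 3 and TTP 3, or all 4 arrays numbered 3, were left out. In Myc TTP over Myc it was 0 to 28, the 28 without Myc 3, 1 with a common array median, 1 without wild type 3 and TTP 3, and 1523 with all 4 arrays numbered 3 left out, where 3 glycolysis and 2 pyruvate genes were called. The causes were not tested.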
